A study of Mus musculus with 6 samples.

Results

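Collagens, laminins, proteoglycans and a few other matrix proteins were examined in newborn mouse retina with and without Meg2, the protein tyrosine phosphatase encoded by Ptpn9. Members were the genes named by a collagen or laminin chain symbol, together with 16 further proteoglycan, nidogen and matrix glycoprotein genes, that were read by a transcript cluster annotated to that gene alone. A transcript cluster is the group of array probes that together read one transcript. The rule found 70 genes among the 19938 genes with such a cluster, and for Col6a5 and Col6a6, which had 2 clusters each, the one with the higher mean signal stood in. The tested animals were Meg2 knockout mice on a C57BL/6NTac background at postnatal day 0 (n = 3), and the controls were wild-type mice of the same background and age (n = 3). Each array carried RNA of both pooled retinae of an animal, so per the labels every array is a separate mouse. The labels do not say which part of Ptpn9 is deleted or whether the deletion is limited to some cells. The unit is the log2 signal after the authors' normalisation, and a difference is knockout minus wild type. Signals of different clusters are not on a common scale, since probes differ in affinity, so each gene was compared only with itself.

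The extracellular matrix of the eye has 2 main architectures. Basement membranes are thin sheets built from a laminin network and a type IV collagen network, which nidogens and the heparan sulfate proteoglycans perlecan and agrin join together. In the retina such sheets line the vitreal surface as the inner limiting membrane and wrap the blood vessels that grow in from the optic nerve head around birth. Interstitial matrix is built from fibrils of types I, II, III and V collagen, decorated by small leucine-rich proteoglycans such as biglycan and decorin. Fibroblasts, sclera, cornea and vessel walls make much of it, while neural tissue holds mainly hyaluronan-binding lecticans.

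Some facts of the series bear on every value below. Ptpn9 signal itself read 9.31, 9.58 and 9.28 on knockout arrays and 10.05, 9.93 and 9.94 on wild-type arrays. Its difference was -0.58 (SE 0.087), and it did not pass correction over all tested clusters (limma, adjusted p = 0.437). The 9 measured markers of newborn retina of 11 listed, such as Neurod1, Crx and Pax6, averaged 11.47 to 11.66 per knockout array and 11.46 to 11.58 per wild-type array. Arrays of the same replicate number deviated together, and they shared their Xist and Y-linked pattern. Replicate 2 of both genotypes carried high Xist signal (12.54 in knockout and 12.54 in wild type) together with intermediate signal of the Y-linked gene Uty (7.18 in knockout and 7.67 in wild type), a combination that RNA of 1 mouse does not normally show. Replicates 1 and 3 of both genotypes carried one or the other. The values of Bgn, Nid1, Lama1, Lama4, Col12a1, Col15a1 and Itga1, the median over all members and the endothelial list are also given without both replicate 2 arrays. Array medians over the whole table lay between 7.84 and 7.91, and 3 arrays per genotype set the precision.

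The largest difference among the 70 members was that of Bgn. Biglycan (Bgn), a small leucine-rich proteoglycan of bone, skin and vessel walls that binds collagen and growth factors, was brighter on every knockout array than on any wild-type array. Its signal was 8.16, 7.95 and 8.12 in the knockout (8.08 ± 0.11, SD, n = 3) and 7.70, 7.38 and 7.41 in the wild type (7.49 ± 0.18, SD, n = 3). No arrays overlapped between genotypes, and the difference was 0.59 (SE 0.097, 95% interval 0.37 to 0.81), a 1.5-fold higher signal. In bulk tissue, more cells of a type and more RNA per cell cannot be told apart.

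Bgn did not pass correction over the 23410 tested clusters (limma, adjusted p = 0.451), where the unadjusted p was 0.000212. Taking replicate number as a block in limma gave an adjusted p of 0.125. The difference within replicate numbers 1, 2 and 3 was 0.47, 0.58 and 0.71, so all of them ran the same way. It was 0.59 without both replicate 2 arrays and lay between 0.53 and 0.69 when any single array was left out, and at 0.52 without both replicate 3 arrays. Of the 23410 tested clusters 18 had a larger positive difference. Bgn lies on the X chromosome, and arrays of the same number had similar Xist signal. Any part of sex in the Bgn difference was not tested.

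**Figure D1:**
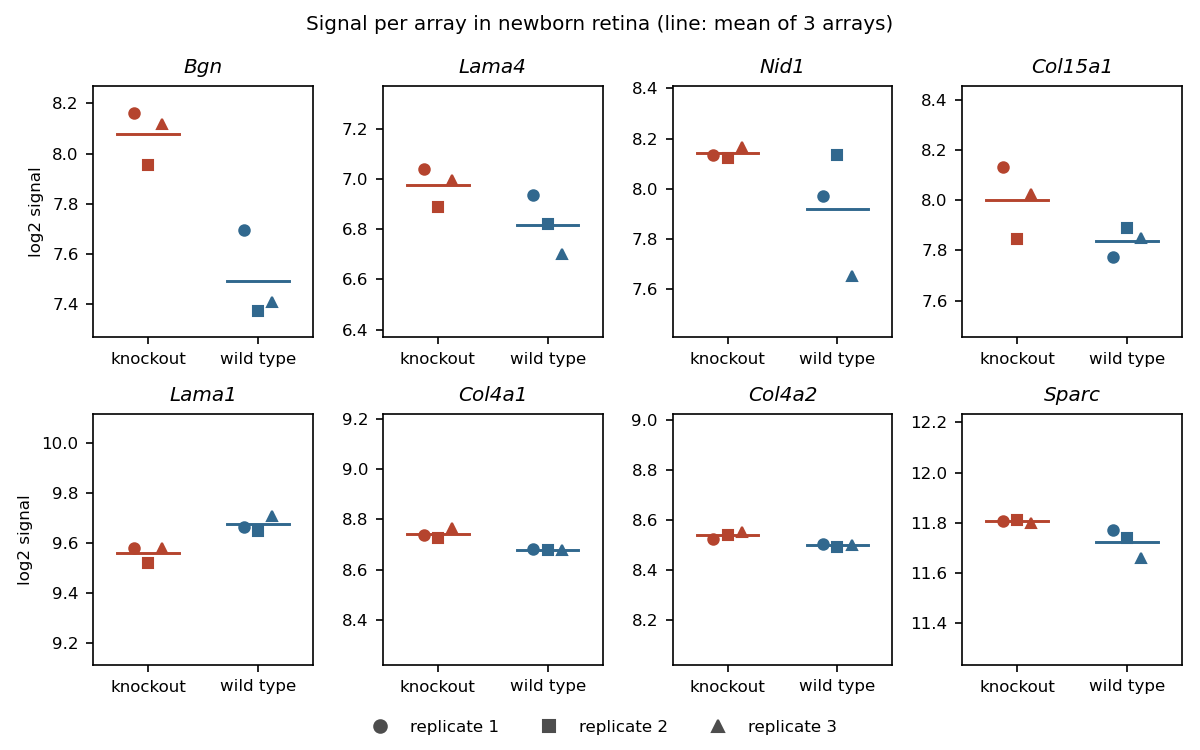
Log2 signal (vertical axis, each panel spanning 1 log2 unit) of 8 members on the knockout arrays (left in each panel) and wild-type arrays (right). Points are arrays, shaped by replicate number, and lines are means of 3 arrays. Bgn shows the widest gap between genotypes. The Col4a1 and Col4a2 arrays also do not overlap between genotypes, at differences of 0.065 and 0.040. They do overlap once each array is centred on its own median.

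Bgn and 3 basement membrane genes are shown with the sequence around their annotated start, because they carry the largest positive difference (Bgn), the next largest (Nid1) and the gene pair that lies head to head (Col4a1 and Col4a2). Each window runs from 250 bases before to 50 bases after the start, 5′ to 3′ on the gene's strand, from RefSeq on GRCm38.p6, and windows were found for 52 of the 70 members. In the Bgn and Nid1 windows the capitals mark GC boxes, GGGCGG on either strand. In the Col4a1 and Col4a2 windows the capitals mark the bases that both windows hold, read from opposite strands.
Bgn (chrX:73483351-73483650, plus strand): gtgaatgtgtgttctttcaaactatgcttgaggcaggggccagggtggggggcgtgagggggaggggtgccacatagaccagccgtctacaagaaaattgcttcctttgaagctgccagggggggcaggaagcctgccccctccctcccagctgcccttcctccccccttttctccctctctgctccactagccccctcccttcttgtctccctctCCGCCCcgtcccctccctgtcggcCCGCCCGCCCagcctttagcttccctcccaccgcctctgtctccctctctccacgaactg
Nid1 (chr13:13437352-13437651, plus strand): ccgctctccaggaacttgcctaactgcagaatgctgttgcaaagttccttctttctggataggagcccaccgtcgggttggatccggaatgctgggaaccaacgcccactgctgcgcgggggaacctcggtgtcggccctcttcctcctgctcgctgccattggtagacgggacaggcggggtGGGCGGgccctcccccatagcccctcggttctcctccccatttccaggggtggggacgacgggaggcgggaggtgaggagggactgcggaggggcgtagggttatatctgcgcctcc
Col4a1 (chr8:11312777-11313076, minus strand): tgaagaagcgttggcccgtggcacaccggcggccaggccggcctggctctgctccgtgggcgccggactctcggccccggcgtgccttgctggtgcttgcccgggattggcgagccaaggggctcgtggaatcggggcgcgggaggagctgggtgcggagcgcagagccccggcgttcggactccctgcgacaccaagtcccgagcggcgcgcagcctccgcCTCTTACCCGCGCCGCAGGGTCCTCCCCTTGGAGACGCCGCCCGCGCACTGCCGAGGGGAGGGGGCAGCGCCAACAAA
Col4a2 (chr8:11312555-11312854, plus strand): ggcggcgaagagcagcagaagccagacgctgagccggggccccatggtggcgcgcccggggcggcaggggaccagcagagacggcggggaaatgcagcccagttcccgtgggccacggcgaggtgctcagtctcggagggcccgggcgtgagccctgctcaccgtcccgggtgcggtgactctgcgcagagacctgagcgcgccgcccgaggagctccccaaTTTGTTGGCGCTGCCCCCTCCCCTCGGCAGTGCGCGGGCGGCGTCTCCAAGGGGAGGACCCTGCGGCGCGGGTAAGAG

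The Col4a1 and Col4a2 windows share 78 bases, and their annotated starts lie 21 bases apart on opposite strands. The Bgn window holds 3 GC boxes, 2 of which overlap each other, the Nid1 window 1, the Col4a1 window 1 and the Col4a2 window 3. A GC box was found in 36 of 59 member windows (61.0%) and in 35.7% of all 32851 windows of this length. The sequence CCAAT, on either strand, was found in 19 of the 59 member windows (32.2%) and in 37.4% of all windows, and TATAAA in 10 (16.9%) and in 13.6%. Bgn holds neither CCAAT nor TATAAA in its window, while Nid1, Col4a1 and Col4a2 hold CCAAT once each. A match is a description of the window's letters.

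Over all 70 members, the knockout difference ranged from -0.11 to 0.59 with a median of 0.038, beside a median of 0.0012 over all tested clusters. None of the members passed an adjusted p of 0.05 in limma, where 0% of all clusters did. At an unadjusted p under 0.05, which 3.43% of clusters reached, 1 member, Bgn, had higher signal, where 1.69% of clusters did. No member had one with lower signal, where 1.74% did. With the replicate block 0 members passed the adjusted threshold, where 0.00427% of clusters did. An unadjusted p under 0.05 was reached by 8.81% of clusters in that fit, and 2 members, Bgn and Lama4, lay higher (4.46% of clusters) and 1, Lama1, lower (4.36% of clusters). These shares are close to or below the background.

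Positive differences were the more frequent among members, at 47 of 70 (67.1%), beside 50.7% of all tested clusters. Knockout arrays all lay above wild-type arrays in 7 members (10%, beside 4.08% of clusters), namely Bgn, Col4a1, Col4a2, Col4a6, Col12a1, Lamb1 and Sparc. They all lay below in 2 (2.86%, beside 4.35% of clusters), Lama1 and Ncan. With each array centred on its own median these counts were 3 (Bgn, Col12a1 and Sparc) and 1 (Lama1). The arrays of Col4a1, Col4a2, Col4a6, Lamb1 and Ncan then overlapped. Within replicate numbers, 21 members (30%) were higher in the knockout in all 3, beside 16.5% of clusters, and 7 (10%) were lower in all 3, beside 15.9%.

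The size of this lean was small and varied with the arrays used. The knockout replicate 1 array read above the 6-array mean in 61 of 70 members, the other knockout arrays in 27 and 33, and the wild-type arrays of replicates 1, 2 and 3 in 41, 23 and 16. Without knockout replicate 1 the median difference of the members was -0.0064. Without both replicate 1 arrays it was 0.014, beside 4e-05 over all tested clusters, and without both replicate 2 arrays 0.041. All but 2 members differed by at most 0.2, and 63 of the 70 had a 95% interval that stayed within 0.3 in either direction.

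**Figure D2:**
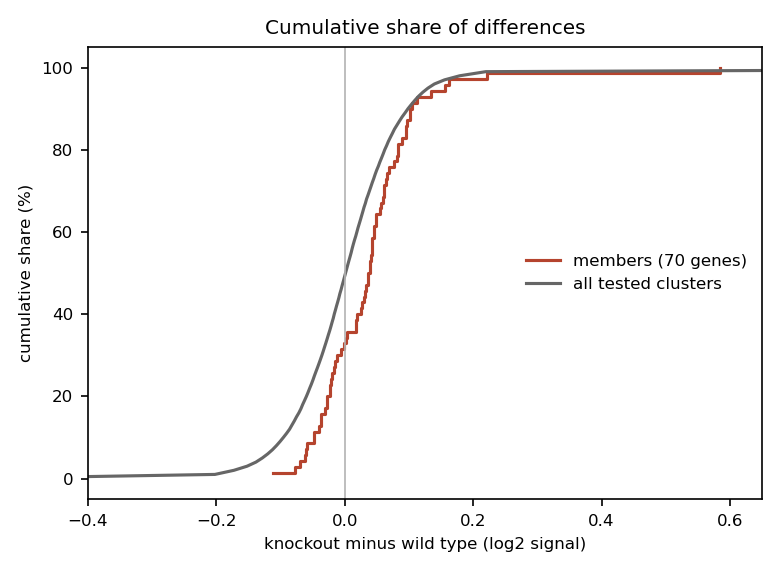
Cumulative share (vertical axis, %) of genes with a knockout minus wild-type difference up to the value on the horizontal axis (log2 signal), for the 70 members and for all tested clusters. The member curve lies to the right of the other through its middle, at a median of 0.038 against 0.0012, and Bgn forms the step at 0.59.

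**Figure D3:**
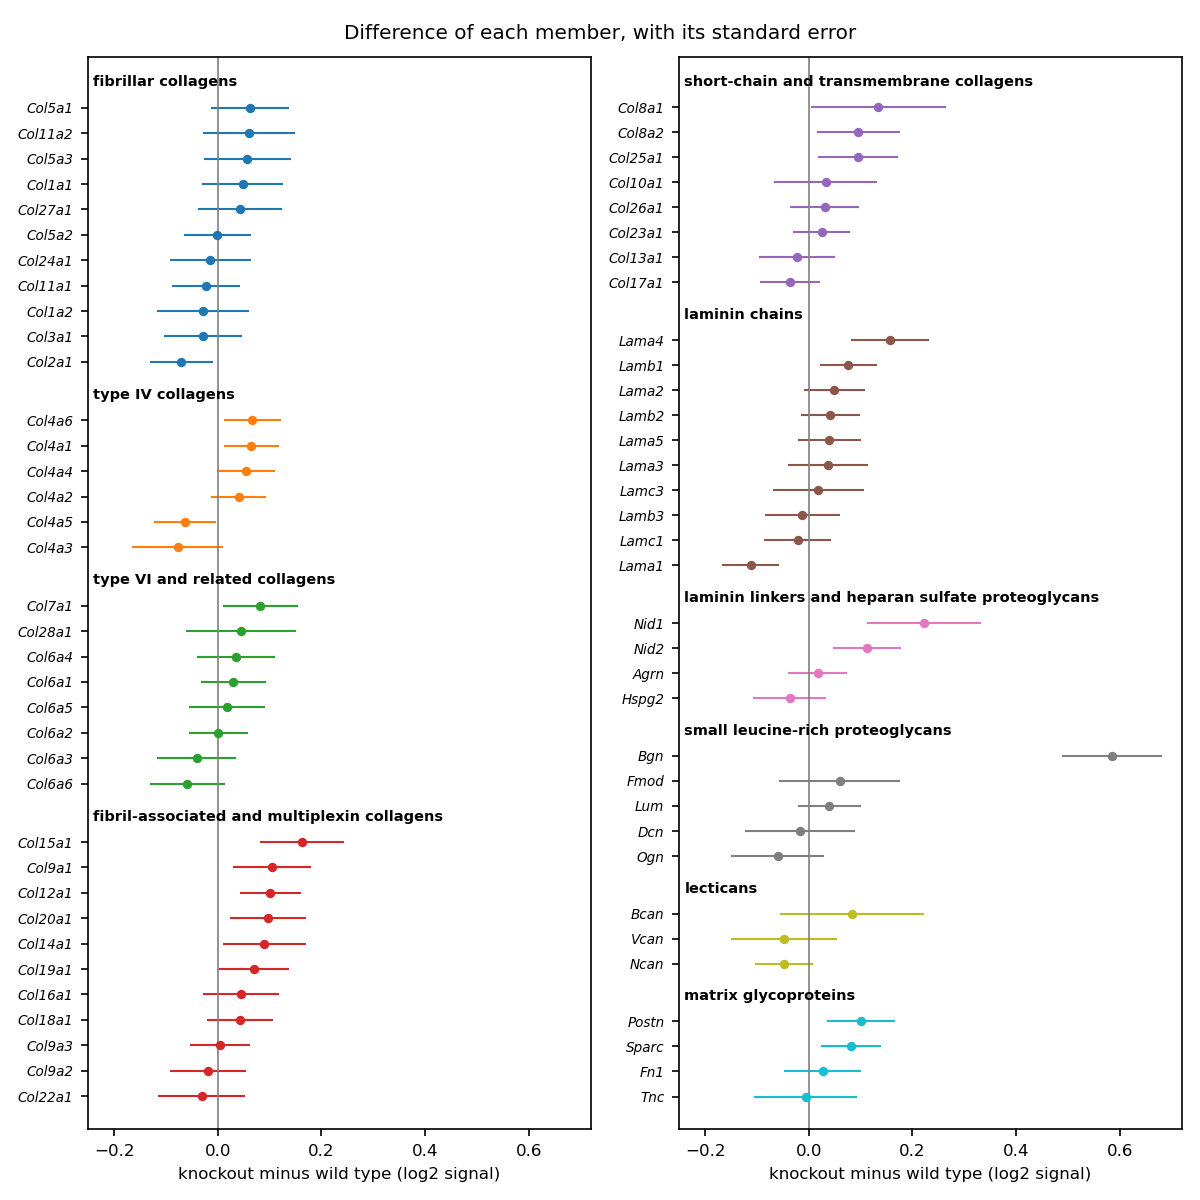
Knockout minus wild-type difference (horizontal axis, log2 signal) of each of the 70 members, grouped by role. Points are limma estimates from 3 arrays per genotype and bars are their standard errors. Bgn is the single member far from 0, and most other bars reach or cross the zero line.

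Among basement membrane collagens, no chain had an unadjusted p under 0.05. Col4a1 encodes the α1 chain, present in nearly every basement membrane. It read 8.74, 8.73 and 8.76 in the knockout and 8.68, 8.68 and 8.68 in the wild type. Its difference was 0.065 (SE 0.053, limma, unadjusted p = 0.256). The groups of arrays were separate in the deposited values.

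Col4a2, its α2 partner which starts within the shared stretch printed above, read 8.52, 8.54 and 8.55 in the knockout and 8.50, 8.49 and 8.50 in the wild type. Its difference was 0.040 (SE 0.053, limma, unadjusted p = 0.466), again without overlap of the arrays. With each array centred on its own median, the groups overlapped for Col4a1 and for Col4a2. For both genes the 95% interval included 0 and ended at 0.19 (Col4a1) and 0.16 (Col4a2). The moderated standard error borrows its size from other clusters and is wider here than the scatter of the arrays.

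The remaining type IV chains form networks of more specialised basement membranes, such as those of the glomerulus and lens capsule. Col4a4 and Col4a6 differed by 0.055 (SE 0.055) and 0.066 (SE 0.055), and Col4a3 and Col4a5 by -0.077 (SE 0.088) and -0.063 (SE 0.060). Col4a3 read 7.80, 7.54 and 7.55 in the knockout and 7.82, 7.63 and 7.67 in the wild type, so its arrays overlapped. The list held 4 of 6 chains above 0 with a median of 0.048. None of the 6 passed the test.

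Laminins are three-chain glycoproteins whose α chain sets the cell receptor they bind. Lama4, the α4 chain typical of endothelial basement membranes, read 7.04, 6.89 and 6.996 in the knockout and 6.93, 6.82 and 6.70 in the wild type. The knockout array of each number was brighter than its wild-type partner, although the groups overlapped. The difference was 0.16 (SE 0.076, unadjusted p = 0.0694, and 0.0342 with the replicate block, in limma). Its adjusted p was 0.545 with the block. The difference was 0.098 without wild-type replicate 3, 0.087 without both replicate 3 arrays and 0.20 without both replicate 2 arrays.

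Lama1, the α1 chain of embryonic basement membranes and of the inner limiting membrane, lay the other way. It read 9.58, 9.52 and 9.58 in the knockout (9.56 ± 0.034, SD, n = 3) and 9.67, 9.65 and 9.71 in the wild type (9.67 ± 0.030, SD, n = 3). All 3 knockout arrays were dimmer than all wild-type arrays, by 0.11 on average (difference -0.11, SE 0.056, limma, unadjusted p = 0.0751, and 0.0447 with the replicate block). It was the lowest difference of the 70 members and had an adjusted p of 0.556 with the block. Without both replicate 2 arrays it was -0.10.

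The chains shared by most laminins differed by under 0.1. Lamb1, the β1 chain, read 8.33, 8.36 and 8.38 in the knockout and 8.27, 8.25 and 8.31 in the wild type, a difference of 0.076 (SE 0.055) without overlap. Its groups overlapped once each array was centred on its own median. Lamb2, the β2 chain of synaptic and retinal laminins, read 10.21, 10.28 and 10.26 in the knockout and 10.18, 10.26 and 10.19 in the wild type, with overlap and a difference of 0.042 (SE 0.057). Lamc1, the γ1 chain of most laminin trimers, read 9.18, 9.22 and 9.29 in the knockout and 9.17, 9.32 and 9.26 in the wild type.

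The Lamc1 knockout arrays lay within the wild-type range, with a difference of -0.021 (SE 0.065). The 5 other measured chains, Lama2, Lama3, Lama5, Lamb3 and Lamc3, differed by -0.012 to 0.049. Of the 10 measured laminin chains 7 lay above 0, and the median was 0.038.

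Nidogens bridge the laminin and type IV collagen networks. Nid1, nidogen 1, read 8.14, 8.12 and 8.17 in the knockout and 7.97, 8.14 and 7.65 in the wild type. The knockout arrays lay close together and the wild-type arrays were spread, so that replicate 2 of the wild type matched the knockout. The difference was 0.22 (SE 0.11, limma, unadjusted p = 0.0742), 0.088 without wild-type replicate 3 0.34 without both replicate 2 arrays and 0.076 without both replicate 3 arrays.

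Nid2, nidogen 2, read 7.45, 7.41 and 7.47 in the knockout and 7.44, 7.27 and 7.29 in the wild type, a difference of 0.11 (SE 0.065). Replicate 1 of the wild type lay within the knockout range. Both nidogens thus had positive estimates whose intervals included 0.

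Perlecan and agrin carry heparan sulfate chains that hold growth factors in basement membranes. Hspg2, perlecan, read 8.97, 8.95 and 8.82 in the knockout and 8.99, 9.00 and 8.85 in the wild type. Each knockout array was dimmer than its numbered partner by a small amount, and the difference was -0.036 (SE 0.070). Agrn, agrin, read 11.51, 11.62 and 11.55 in the knockout and 11.57, 11.52 and 11.54 in the wild type, with overlap and a difference of 0.017 (SE 0.057).

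Fibril-forming collagens, which give sclera, cornea and vitreous their tensile structure, were centred on 0. Of 11 genes 5 lay above 0, with a median of -0.00047 and a range of -0.070 to 0.062. Col1a1 and Col1a2 encode the chains of type I collagen. Col1a1 read 8.77, 8.66 and 8.51 in the knockout and 8.68, 8.54 and 8.57 in the wild type. Col1a2 read 8.80, 8.63 and 8.50 in the knockout and 8.77, 8.68 and 8.56 in the wild type.

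In both the groups overlapped, and the differences were 0.048 (SE 0.078) for Col1a1 and -0.028 (SE 0.089) for Col1a2. Col3a1, type III collagen of vessels and soft connective tissue, read 8.12, 7.87 and 7.93 in the knockout and 8.06, 7.98 and 7.97 in the wild type. Its difference was -0.028 (SE 0.076). For these 3 genes of interstitial fibrils the 95% intervals ran from -0.13 to 0.23, -0.23 to 0.17 and -0.20 to 0.14, and each included 0.

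Col2a1 encodes type II collagen, the main fibril of vitreous and cartilage, which retinal and ciliary cells also express in development. It read 10.21, 10.13 and 10.18 in the knockout and 10.32, 10.20 and 10.21 in the wild type. Each knockout array was dimmer than its partner, the groups overlapped, and the difference was -0.070 (SE 0.061). The remaining fibrillar genes, Col5a1, Col5a2, Col5a3, Col11a1, Col11a2, Col24a1 and Col27a1, differed by -0.022 to 0.062.

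Fibril-associated collagens sit on fibril surfaces, and the multiplexins, types XV and XVIII, lie in basement membrane zones. Of these 11 genes 9 lay above 0, with a median of 0.070, which was 0.021 without knockout replicate 1. Col15a1, type XV collagen of vascular and muscle basement membrane zones, read 8.13, 7.84 and 8.02 in the knockout and 7.78, 7.89 and 7.85 in the wild type. Replicates 1 and 3 of the knockout lay above all wild-type arrays and replicate 2 within them. The difference was 0.16 (SE 0.081, limma, unadjusted p = 0.0752), or 0.096 without knockout replicate 1, 0.065 without both replicate 1 arrays and 0.27 without both replicate 2 arrays.

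Col18a1, type XVIII collagen and the source of endostatin, read 9.26, 9.25 and 9.13 in the knockout and 9.13, 9.24 and 9.14 in the wild type, with overlap and a difference of 0.043 (SE 0.064). Col9a1, a chain of the type IX collagen that coats type II fibrils, read 9.93, 10.16 and 10.03 in the knockout and 9.93, 10.01 and 9.86 in the wild type. Its difference was 0.10 (SE 0.076), or 0.044 without knockout replicate 2, while those of its partner chains Col9a2 and Col9a3 were -0.019 and 0.0043. Col12a1, type XII collagen, read 6.58, 6.66 and 6.62 in the knockout and 6.58, 6.48 and 6.49 in the wild type.

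The Col12a1 arrays did not overlap, although the replicate 1 arrays nearly touched, and the difference was 0.10 (SE 0.059), or 0.062 without both replicate 2 arrays. The other members of this list, Col14a1, Col16a1, Col19a1, Col20a1 and Col22a1, differed by -0.031 to 0.096. None of the 11 had an unadjusted p under 0.05.

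Type VI collagen makes beaded microfilaments next to basement membranes. Col6a1, its α1 chain, read 9.83, 9.93 and 9.93 in the knockout and 9.79, 9.92 and 9.88 in the wild type. The arrays overlapped and paired closely by number, and the difference was 0.030 (SE 0.063). The other genes grouped with it, Col6a2 to Col6a6, Col7a1 of anchoring fibrils and Col28a1, differed by -0.059 to 0.082. The second, dimmer cluster of Col6a5 differed by -0.22 (SE 0.12) and that of Col6a6 by 0.058 (SE 0.065), where the brighter clusters gave 0.018 and -0.059.

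The short-chain and transmembrane collagens had 6 of 8 genes above 0 and a median of 0.032. The largest estimate was that of Col8a1, a collagen of the corneal Descemet membrane and of vessel walls, at 0.13 (SE 0.13). Its arrays read 8.40, 8.17 and 7.83 in the knockout and 8.02, 8.08 and 7.90 in the wild type, so the knockout alone spanned more than the difference. Without knockout replicate 1 it was -0.0013.

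Among small leucine-rich proteoglycans, Bgn was the only one of 5 with an unadjusted p under 0.05, as described above. Decorin (Dcn), the closest relative of biglycan, read 6.73, 6.58 and 6.36 in the knockout and 6.497, 6.74 and 6.48 in the wild type. The arrays overlapped throughout and the difference was -0.017 (SE 0.11, 95% interval -0.26 to 0.22). Lumican (Lum), of corneal stroma, read 4.77, 4.70 and 4.70 in the knockout and 4.68, 4.75 and 4.62 in the wild type, a difference of 0.040 (SE 0.061).

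Fibromodulin (Fmod), of tendon and sclera, read 7.19, 6.78 and 6.69 in the knockout and 6.87, 6.79 and 6.81 in the wild type. The knockout replicate 1 array was high and the other 2 lay below all wild-type arrays, with a difference of 0.060 (SE 0.12). Osteoglycin (Ogn) read 5.49, 5.17 and 5.22 in the knockout and 5.28, 5.34 and 5.44 in the wild type, a difference of -0.060 (SE 0.089). Dcn, Lum and Ogn, with Postn and Col12a1, were the 5 members under the 25th percentile of mean signal, where a change is read with less contrast, and detection calls were not used here.

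Lecticans are the hyaluronan-binding proteoglycans of neural matrix. Neurocan (Ncan), of developing nervous tissue, read 11.15, 11.13 and 11.14 in the knockout and 11.16, 11.16 and 11.24 in the wild type. All knockout arrays lay below the wild-type arrays, by 0.048 on average (difference -0.048, SE 0.056). The groups overlapped once each array was centred on its own median. Versican (Vcan) read 8.94, 9.13 and 8.77 in the knockout and 8.84, 9.11 and 9.03 in the wild type, with a difference of -0.047 (SE 0.10).

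Brevican (Bcan) read 8.18, 7.81 and 8.25 in the knockout and 8.22, 7.77 and 8.001 in the wild type, a difference of 0.083 (SE 0.14). In both genotypes the replicate 2 array was the dimmest for Bcan and the brightest for Vcan. None of the lecticans passed the test.

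The glycoproteins that organise matrix and cell adhesion gave small positive or null estimates. Sparc, a collagen-binding protein of vessels and glia, read 11.81, 11.81 and 11.80 in the knockout and 11.77, 11.74 and 11.66 in the wild type. The groups did not overlap, and the difference was 0.082 (SE 0.057, limma, unadjusted p = 0.189), or 0.049 without wild-type replicate 3. Fibronectin (Fn1), the template on which vessels and astrocytes spread, read 11.72, 11.85 and 11.62 in the knockout and 11.68, 11.79 and 11.66 in the wild type.

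The Fn1 arrays ordered by replicate number and not by genotype, with a difference of 0.027 (SE 0.075). Periostin (Postn), a protein of fibrous connective tissue, read 6.04, 6.00 and 6.07 in the knockout and 5.95, 6.02 and 5.83 in the wild type, a difference of 0.10 (SE 0.066) with overlap. Without wild-type replicate 3 the Postn difference was 0.049, and without both replicate 3 arrays 0.034. Tenascin C (Tnc), an astrocyte and mesenchyme glycoprotein, read 8.60, 8.54 and 8.84 in the knockout and 8.58, 8.59 and 8.83 in the wild type. Its replicate 3 arrays were the brightest in both genotypes, and the difference was -0.0061 (SE 0.099).

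Genes that make, bind or cut the matrix were counted in the same way, beside 50.7% of all tested clusters above 0. Of 26 measured enzymes of collagen synthesis and cross-linking 14 lay above 0 with a median of 0.0087. In limma 1 of them (3.85%, beside 3.43% of all clusters) had an unadjusted p under 0.05. It was the prolyl 3-hydroxylase gene P3h2, at 0.17 (SE 0.062). Of 26 matrix receptors 17 lay above 0 with a median of 0.033. Itga1, the α1 integrin chain that binds type IV collagen on vascular mural cells, read 6.39, 6.32 and 6.47 in the knockout and 6.03, 6.00 and 6.11 in the wild type.

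The Itga1 arrays did not overlap, and the difference was 0.35 (SE 0.064, limma, adjusted p = 0.801), or 0.36 without both replicate 2 arrays. Mean Itga1 signal was low, at percentile 16.5 of the tested clusters. The collagen receptor chain gene Itga11 differed by 0.14 (SE 0.058). Of 20 proteases and inhibitors 16 lay above 0 with a median of 0.037, with Timp3, an inhibitor bound to matrix, at 0.20 (SE 0.065) and the gelatinase gene Mmp9 at -0.14 (SE 0.060). Of 18 other matrix genes 13 lay above 0 with a median of 0.068. Mgp, matrix Gla protein of vessel walls and cartilage, was the highest at 0.28 (SE 0.10), or 0.18 without both replicate 3 arrays. Prelp was the lowest at -0.21, or -0.13 without both replicate 2 arrays, and Fbln1 was at -0.12. In limma, 7.69% of receptors, 10% of proteases and inhibitors and 5.56% of other matrix genes had an unadjusted p under 0.05. Of all clusters 3.43% did. No gene of these 4 lists passed an adjusted p of 0.05.

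**Figure D4:**
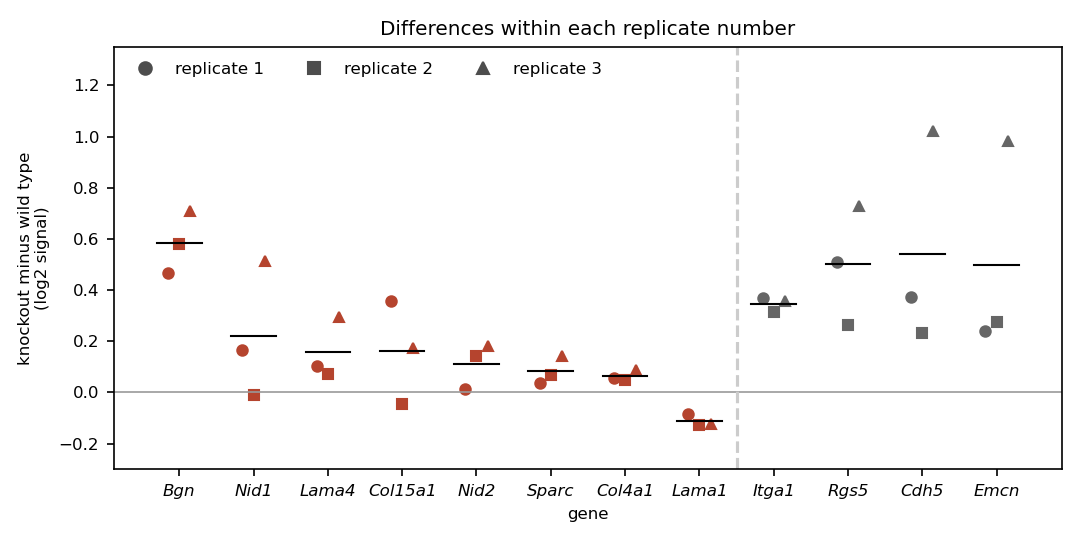
Knockout minus wild-type difference within each replicate number (vertical axis, log2 signal) for 8 members and, right of the dashed line, for the integrin gene Itga1, the pericyte gene Rgs5 and the endothelial genes Cdh5 and Emcn. Points are replicate numbers and lines are means. Bgn lies between 0.47 and 0.71, Lama1 is below 0 at each number, and Rgs5, Cdh5 and Emcn are above 0 at each number. The genes right of the dashed line have the largest or nearly the largest positive differences of their lists. Other genes of these lists had mean differences below 0, such as Kdr (-0.070), Pdgfrb (-0.016) and Sdc1 (-0.086).

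Markers of cells that make matrix in and around the retina were read beside the members. Of all tested clusters 50.7% lay above 0. Endothelial markers lay above 0 in 9 of 10 genes with a median of 0.15, and their mean signal per array ran from 7.93 to 8.28 in the knockout and from 7.86 to 8.0003 in the wild type. Pericyte and mural markers lay above 0 in 7 of 10 with a median of 0.063, and ran from 7.58 to 7.77 in the knockout and from 7.54 to 7.60 in the wild type. Periocular mesenchyme markers lay above 0 in 5 of 9 measured genes of 10 listed with a median of 0.042, and ran from 7.32 to 7.44 in the knockout and from 7.28 to 7.42 in the wild type.

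In each of these lists the ranges overlapped. Within replicate numbers, the endothelial mean was higher in the knockout in all 3, and the pericyte and mesenchyme means in 2 of 3. The endothelial median was 0.22 without both replicate 2 arrays and 0.087 without both replicate 3 arrays. The lists were not uniform. Endothelial genes ran from -0.070 for Kdr to 0.54 (SE 0.14) for Cdh5, with Cldn5 at 0.077 and Emcn at 0.50 (SE 0.14). Without both replicate 3 arrays, Cdh5 was at 0.30 and Emcn at 0.26. Mean Emcn signal was low, at percentile 17.6 of the tested clusters.

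Pericyte and mural genes ran from -0.038 for Des to 0.50 (SE 0.11) for Rgs5. Abcc9 was at 0.19, Anpep at 0.19 and Acta2 at 0.18. Kcnj8 was at 0.084, Cspg4 at 0.043, Higd1b at 0.0048, Notch3 at -0.013 and Pdgfrb at -0.016. Mesenchyme genes ran from -0.066 for Prrx2 to 0.26 (SE 0.11) for Pdgfra, which retinal astrocytes also express and which was at 0.14 without knockout replicate 3. Twist1, Prrx1 and Pdgfrl lay below 0 too. An unadjusted p under 0.05 in limma was reached by 30% of endothelial, 20% of pericyte and mural and 11.1% of mesenchyme markers. Of all clusters 3.43% reached it. None of these genes passed correction. The part of these cells in the Bgn difference was not tested.

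Other tissue markers were as follows, beside 50.7% of all tested clusters above 0. Lens markers lay above 0 in 10 of 12 measured genes of 13 listed, with means of 7.76 to 7.93 in the knockout and 7.69 to 7.86 in the wild type. The lens gene Cryaa had the largest difference of that list, at 0.53 (SE 0.22), or 0.16 without both replicate 3 arrays. Pigment epithelium markers lay above 0 in 6 of 8, with means of 7.14 to 7.46 in the knockout and 7.14 to 7.26 in the wild type. Astrocyte markers lay above 0 in 4 of 5, with means of 7.36 to 7.38 in the knockout and 7.22 to 7.39 in the wild type, and markers of cornea and skeletal muscle in 2 of 8, with means of 7.25 to 7.39 in the knockout and 7.30 to 7.35 in the wild type. An unadjusted p under 0.05 in limma was reached by 8.33% of lens and 12.5% of pigment epithelium markers. It was reached by 0% of astrocyte markers, 0% of cornea and skeletal muscle markers and 3.43% of all clusters. RMA signals have no zero, so absence of a marker cannot be read from them.

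**Figure D5:**
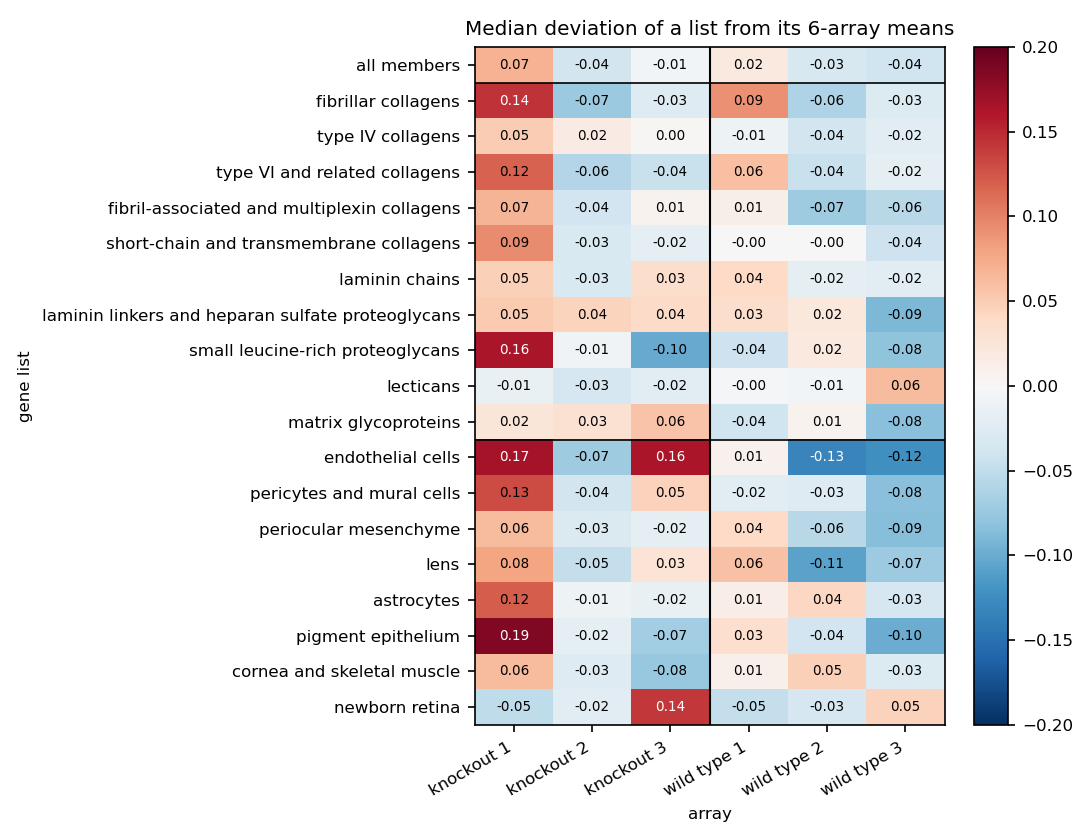
Median deviation of the genes of each list from their own mean over the 6 arrays (colour and printed value, log2 signal), by array (columns, knockout left of wild type) for all members, the 10 role lists and 8 marker lists (rows). The knockout replicate 1 array is at 0.07 for all members and at 0.14 for fibrillar collagens, whose wild-type replicate 1 array is at 0.09. Endothelial markers deviate by 0.17, -0.07 and 0.16 on knockout arrays, against 0.01, -0.13 and -0.12 on wild-type arrays.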

How the data were processed

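RNA from the retinae of 3 knockout and 3 wild-type newborn mice was read on Mouse Gene 1.0 ST arrays, per the labels. The authors deposited log2 signals per transcript cluster. The submitters' processing notes name Affymetrix Expression Console, RMA and Transcriptome Analysis Console, without versions. RMA puts all arrays on a common distribution, so a shift of most transcripts would not be seen. Of 35557 clusters, 21789 named 1 gene, 1621 several and 12147 none in the platform annotation. The 23410 clusters naming a gene were fitted with limma 3.58.1 (lmFit, eBayes) in R 4.3.3, with Benjamini-Hochberg adjustment over all of them, a threshold of 0.05 and no filter on signal. The fit was tested on simulated data. Tables used pandas 2.3.3 in Python 3.11.15, and figures matplotlib 3.10.9.

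All 70 member identifiers matched the gene table of GRCm38.p6, which changed 0 symbols. Members and gene lists were chosen with earlier results of these data known. Named members were those standing for each role, the 10 with the lowest unadjusted p and the 3 highest and 3 lowest differences. Genes of related lists were named by lowest p, up to 3 a list. Other members given with values, such as Col8a1, Col4a4 and Col4a6, were chosen after their values were seen. The matrix genes Prelp and Fbln1 and the single marker genes were chosen in the same way.

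Replicate numbers come from the sample titles, whose meaning is not stated. Same-numbered arrays of the 2 genotypes deviated together from their group means, with correlations of 0.476, 0.485 and 0.455. Each exceeds the limit of 0.1 used here for pairing, and a blocked limma fit is given where it changes a call or a count. With 3 arrays a group, exact permutation of 1 value has a smallest p of 0.1. Pearson's r between arrays was 0.993 to 0.996. Alternatives were another centring, cyclic loess, variance models, array weights, signal filters, other sets of clusters, the replicate block and arrays left out. Leaving out both arrays of a number was added after seeing the data.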

Additional observations from a re-analysis of the deposited data

How the results depend on the processing

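No member passed an adjusted p of 0.05 in limma under any of the 20 alternatives. The Bgn difference lay between 0.52 and 0.69 in the 19 that kept Bgn, with an adjusted p of 0.125 to 1.00, and the filter at the median of signal removed it. With the replicate block, the pairing of arrays by number, 2 members lay higher and 1 lower at an unadjusted p under 0.05 in limma. Of all clusters 8.81% reached it in that fit. Median centring left 3 members with all knockout arrays above and 1 below all wild-type arrays. Cyclic loess left 1 below and put 2 members higher at an unadjusted p under 0.05 in limma, which 4.37% of all clusters reached there. Shares of all clusters without overlap are not given for the alternatives, so those counts have no background. With array weights Tnc turned to 0.023. Removing clusters under the 25th percentile of signal, which left 2 of 5 small leucine-rich proteoglycans, gave them a median of 0.32. With the filter at the median of signal, 3.68% of the clusters kept had an unadjusted p under 0.05 in limma. The filter kept 27 members, of which 0 lay higher and 1 lower at that p and 3 had all knockout arrays above. Its list medians were -0.0014 for laminin chains, -0.0096 for linkers, 0.0013 for matrix receptors and -0.11 for other matrix genes.

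With 1 or 2 arrays left out, 7 to 20 members had all knockout arrays above and 2 to 10 below the wild type, since fewer arrays overlap less. The share of all clusters without overlap is not given for these sets, so these counts cannot be read against a background. At an unadjusted p under 0.05 in limma, 1 to 4 members lay higher and 0 to 1 lower. Of all clusters, 2.01% to 5.54% reached it in either direction. List medians ran from -0.091 to 0.086 for small leucine-rich proteoglycans, -0.066 to -0.00067 for lecticans, 0.015 to 0.038 for matrix receptors, 0.033 to 0.086 for other matrix genes, -0.036 to 0.036 for type VI and related collagens, -0.034 to 0.054 for fibrillar collagens, -0.0039 to 0.029 for collagen-making enzymes, 0.021 to 0.10 for fibril-associated collagens, 0.0049 to 0.071 for short-chain collagens and 0.011 to 0.055 for laminins. Among the 33 members of the naming rule, these differences changed sign: Agrn (-0.022 to 0.053), Bcan (-0.031 to 0.22), Col18a1 (-0.00018 to 0.082), Col1a1 (-0.012 to 0.11), Col1a2 (-0.11 to 0.045), Col3a1 (-0.10 to 0.023), Col6a1 (-0.0063 to 0.065), Dcn (-0.14 to 0.082), Fmod (-0.091 to 0.16), Fn1 (-0.034 to 0.083), Hspg2 (-0.086 to 0.012), Lamc1 (-0.062 to 0.021), Ogn (-0.19 to 0.016), Tnc (-0.098 to 0.077) and Vcan (-0.14 to 0.059). Members outside that rule, such as Col8a1 and Col11a2, changed sign too. The cause was not tested where none is given.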
